A study of Rattus norvegicus with 12 samples.

Results

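The let-7 family and its close relative miR-98 were followed in the lower (lumbosacral) spinal cord of Wistar rat fetuses on embryonic day 17. Cord from fetuses with anorectal malformations (ARM) was compared with cord from normal fetuses. The malformations had been induced with ETU, the usual abbreviation of ethylenethiourea, a thiourea compound given to the pregnant dam to produce this model. The libraries comprised 3 from ARM cord (replicates 4 to 6) and 3 from normal cord (replicates 4 to 6). No group had received ETU without forming ARM, so the compound and the defect cannot be told apart as sources of a difference. The labels do not say how many fetuses or litters went into a library, so a p-value here reflects the spread between libraries alone, which may be technical. Members were taken by name, as every row of the miRNA table called let-7a, b, c, d, e, f, g or i, or miR-98, with any copy or arm suffix. They came to 21 of the 846 rows. Of these, 9 were 5p rows, the arm that gives the guide strand in this family, and 12 were 3p rows, cut from the other side of the hairpin.

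MicroRNAs are short RNAs that lower the output of messenger RNAs by pairing, through a seed near their 5′ end, with sites in those messengers. The let-7 miRNAs were found in the nematode as timers of development, and in mammals they accumulate as progenitor cells differentiate. The RNA-binding proteins Lin28a and Lin28b hold back the cutting of their precursors in early embryos, and let-7 in turn represses Lin28, Hmga2 and other genes of the undifferentiated state. In the developing nervous system a rising let-7 level is known to go with the exit of neural progenitors from the cell cycle.

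All 9 guide strands were 22 bases long and carried the same seed, so they are expected to share most of their targets. They are printed here 5′ to 3′ from RefSeq (GRCr8 build) to show how little separates the members, with the seed, bases 2 to 8, in capitals.
let-7a-5p: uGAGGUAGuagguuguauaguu
let-7b-5p: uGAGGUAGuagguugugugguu
let-7c-5p: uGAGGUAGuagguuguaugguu
let-7d-5p: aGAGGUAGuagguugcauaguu
let-7e-5p: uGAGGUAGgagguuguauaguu
let-7f-5p: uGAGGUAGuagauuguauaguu
let-7g-5p: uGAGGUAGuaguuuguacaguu
let-7i-5p: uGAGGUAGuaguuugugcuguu
miR-98-5p: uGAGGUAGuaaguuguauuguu

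Against let-7a-5p, with positions counted from 1 at the 5′ end, let-7c differed by A19G, let-7e by U9G and let-7f by G12A. Among the others, let-7b carried A17G and A19G, let-7d carried U1A and U16C, and let-7g carried G12U and U18C. The most distant member was let-7i, with G12U, A17G, U18C and A19U, while miR-98 had G11A and A19U. Of the 36 pairs of guide strands, 4 differed at a single base (1 difference) and the most distant pair, let-7d and let-7i, at 6. Reads with a sequencing error or a trimmed end can therefore move between such neighbours, and how such reads were assigned was not stated in the sources read for this report. The seed GAGGUAG stood at bases 2 to 8 in 9 of 693 mature rat miRNAs of the sequence table, and all 9 were members. RefSeq held a mature sequence for 20 of the 21 member rows.

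The miRNA table held 753 catalogue rows and 93 predicted ones, with total counts of 12262705 to 13233949 in ARM libraries and 11526673 to 12856194 in normal libraries. Levels are given as CPM, each count divided by the library's total over the tested rows times its TMM factor (edgeR) and brought to a common total. The sum of miR-9a-5p, miR-124-3p and miR-128-3p, which mark neural tissue, was 331606 to 350032 CPM in ARM cord and 319104 to 329914 CPM in normal cord. Nearly all of it was miR-9a-5p, at a mean of 331442 CPM in ARM cord and 316411 CPM in normal cord. The other markers of this list had lower means in ARM cord, with overlapping groups. They were miR-124-3p, at 1812 CPM in ARM against 2118 CPM in normal cord, and miR-128-3p, at 6825 against 7038 CPM. The 3 highest rows of the table were miR-9a-5p, miR-10a-5p at 103268 ± 11536 CPM in ARM cord and 103648 ± 3758 CPM in normal cord, and miR-99a-5p. The caudal Hox-cluster miRNAs miR-10a, miR-10b, miR-196a and miR-196b summed to 117856 to 141247 CPM in ARM cord and 123466 to 129705 CPM in normal cord. All 3 blood markers, miR-451-5p and both arms of miR-144, and 2 of 3 immune markers, both arms of miR-142, were listed at 0 in every library. The motor neuron miRNA miR-218a-5p stood at 17191, 14703 and 17215 CPM in ARM cord, against 19379, 19036 and 21207 CPM in normal cord. The groups did not overlap (adjusted p = 0.598, edgeR quasi-likelihood test with Benjamini-Hochberg adjustment). Of all 525 tested rows, 17 (3.24%) were likewise lower in ARM cord without overlap. The sensory ganglion miRNAs miR-182, miR-183-5p and miR-96-5p summed to 8793 to 14917 CPM in ARM cord and 7116 to 9801 CPM in normal cord. In bulk tissue, fewer cells of a type and less RNA per cell cannot be told apart.

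Of the 21 member rows, 3 were listed at 0 in all 6 libraries, namely miR-98-5p, miR-98-3p and let-7f-2-3p. These are the rows that belong to a single locus on the X chromosome, where RefSeq places the let-7f-2 and miR-98 hairpins 541 bases apart in their mature parts (chrX:24460045-24460127 and chrX:24460648-24460755, plus strand, GRCr8). Of all 846 rows 16.2% were listed at 0 in every library, and they included miR-21-5p, miR-28-5p and miR-186-5p, miRNAs found in most tissues. Being listed at 0 is therefore not read here as lack of the miRNA, and no fold or limit is given for these rows. The other 18 member rows, 8 guide and 10 3p rows, passed the filter on low counts.

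The 8 detected guide strands spanned a wide range of levels and kept the same order of level in 6 of 6 libraries. Highest was let-7i, at 33514 ± 3161 CPM in ARM cord and 32539 ± 1133 CPM in normal cord (SD, n = 3 each), the row of rank 4 among all 846. Next came let-7c, at 20054 ± 1039 CPM in ARM cord and 21091 ± 1091 CPM in normal cord, which ranked 9, and let-7g, at 14173 ± 891 CPM in ARM cord and 14004 ± 271 CPM in normal cord, which ranked 12. Together these 3 made up 82.7% to 83.7% of the guide-strand counts of the family in a library. The remaining members were much lower and followed in the order let-7b, let-7a, let-7f, let-7e and let-7d. Over all 6 libraries the mean CPM was 4594 for let-7b, 3934 for let-7a, 3054 for let-7f, 1411 for let-7e and 681 for let-7d. The ranges of neighbours in this order did not overlap over the 6 libraries for any of the 7 neighbouring pairs, the closest being let-7b and let-7a at a ratio of 1.17. These are levels of reads of equal length, and differences in ligation between sequences were not corrected.

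**Figure D1:**
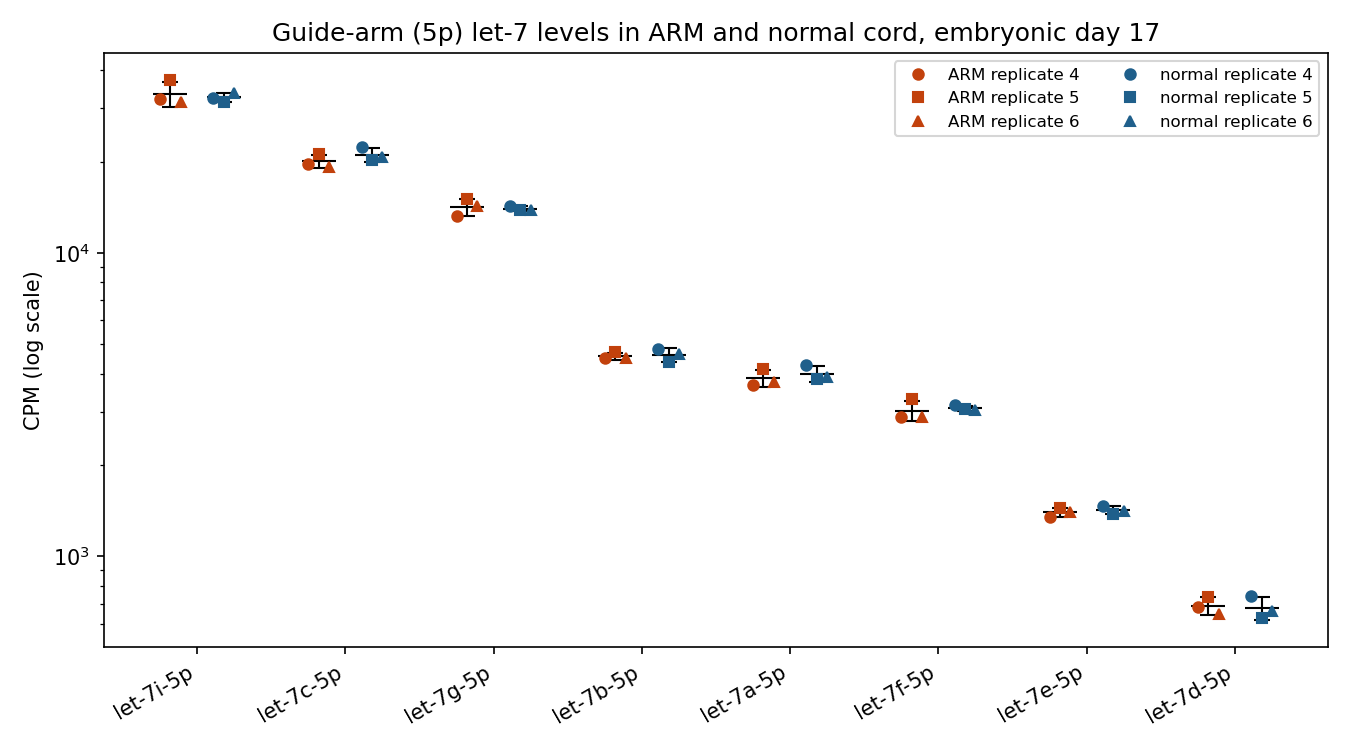
Level of each detected let-7 guide strand in CPM (log axis) by library, with ARM cord in orange on the left of each pair and normal cord in blue on the right. Points are single libraries, and the horizontal line and bar give the mean ± SD of 3 libraries. Members fall from let-7i at 33514 and 32539 CPM to let-7d at 688 and 675 CPM in ARM and normal cord, and the groups overlap for every member.

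Summed over the guide strands, the family stood at 78093, 87715 and 78046 CPM in ARM replicates 4 to 6, against 83485, 78900.0 and 81925 CPM in normal replicates 4 to 6. ARM replicate 5 was the highest library and the other ARM libraries the lowest, so the groups overlapped. The means were 81285 ± 5569 CPM in ARM cord and 81437 ± 2331 CPM in normal cord (SD, n = 3 each). As a share of all miRNA counts the family took 7.54% to 8.85% of an ARM library and 7.98% to 8.49% of a normal library, set beside 31.4% to 33.1% for the most abundant row, miR-9a-5p, known for its role in neural progenitors.

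The comparison of ARM with normal cord asked whether any member differed between the groups. Of the 18 tested member rows 0 reached an adjusted p under 0.05, and 0.0% of all 525 tested rows did (edgeR's quasi-likelihood test, Benjamini-Hochberg adjustment over all of them). At an unadjusted p under 0.05, 0 of the 18 tested member rows and 31 of 525 tested rows (5.9%) were found, of which 24 were higher (4.57%) and 7 lower (1.33%) in ARM cord. DESeq2 called 0 member rows and 7 rows in all. The groups did not overlap for 0 of 18 member rows, beside 45 of 525 tested rows (8.57%), 28 of them higher (5.33%) and 17 lower (3.24%) in ARM cord. Log2 fold changes were above 0 for 3 and below 0 for 5 of the 8 guide strands, which became 2 and 6 without scaling factors, where let-7g turned negative. They were below 0 for 260 of 525 tested rows (49.5%). The median of the guides was -0.019, beside 0.0029 over all tested rows.

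The most abundant member, let-7i-5p, had 32087, 37137 and 31318 CPM in ARM cord, against 32379, 31495 and 33744 CPM in normal cord. It was highest in ARM replicate 5, while the other ARM libraries lay within or just under the normal range (log2 fold change 0.043, SE 0.075, adjusted p = 0.984). Its 95% interval ran from -0.13 to 0.22. The next member, let-7c-5p, had 19665, 21231 and 19264.5 CPM in ARM cord, against 22320.5, 20242 and 20709.7 CPM in normal cord. Only ARM replicate 5 reached the normal range, and the log2 fold change was -0.073 (SE 0.064, interval -0.22 to 0.077, adjusted p = 0.978). The guide let-7g-5p had 13246, 15023 and 14249 CPM in ARM cord, against 14315.5, 13868 and 13827 CPM in normal cord, and both the highest and the lowest library were from ARM cord (0.017, interval -0.13 to 0.16).

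Among the members of intermediate level, let-7b-5p had 4498, 4708 and 4506 CPM in ARM cord, against 4839.8, 4381 and 4629 CPM in normal cord, all ARM libraries lying inside the normal range. For let-7a-5p the values were 3674, 4139.8 and 3772 CPM in ARM cord, against 4274, 3831 and 3911 CPM in normal cord. Here ARM replicates 4 and 6 were the lowest of the 6 and normal replicate 4 the highest. The values of let-7f-5p were 2891, 3292 and 2891 CPM in ARM cord, against 3145, 3072 and 3031 CPM in normal cord, so that the normal libraries lay between the ARM ones. The log2 fold changes were -0.014 for let-7b, -0.053 for let-7a and -0.028 for let-7f.

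The lowest guides were let-7e and let-7d. The level of let-7e-5p was 1352, 1447 and 1399 CPM in ARM cord, against 1471, 1386 and 1413 CPM in normal cord. That of let-7d-5p was 681, 738 and 647 CPM in ARM cord, against 739, 625 and 659 CPM in normal cord. For both, the ARM and normal libraries were interleaved, with log2 fold changes of -0.024 and 0.029. Over the 8 guides the adjusted p ran from 0.978 to 0.984 and the SE from 0.058 to 0.085. The lowest bound of their 95% intervals was 0.857-fold, for let-7c and let-7a, and the highest 1.17-fold, for let-7d, each interval taken singly. The median absolute log2 fold change was 0.028 for the 8 guides, 0.059 for the 184 other tested rows of a mean of 100 CPM or more, and 0.102 for all 525 tested rows.

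**Figure D2:**
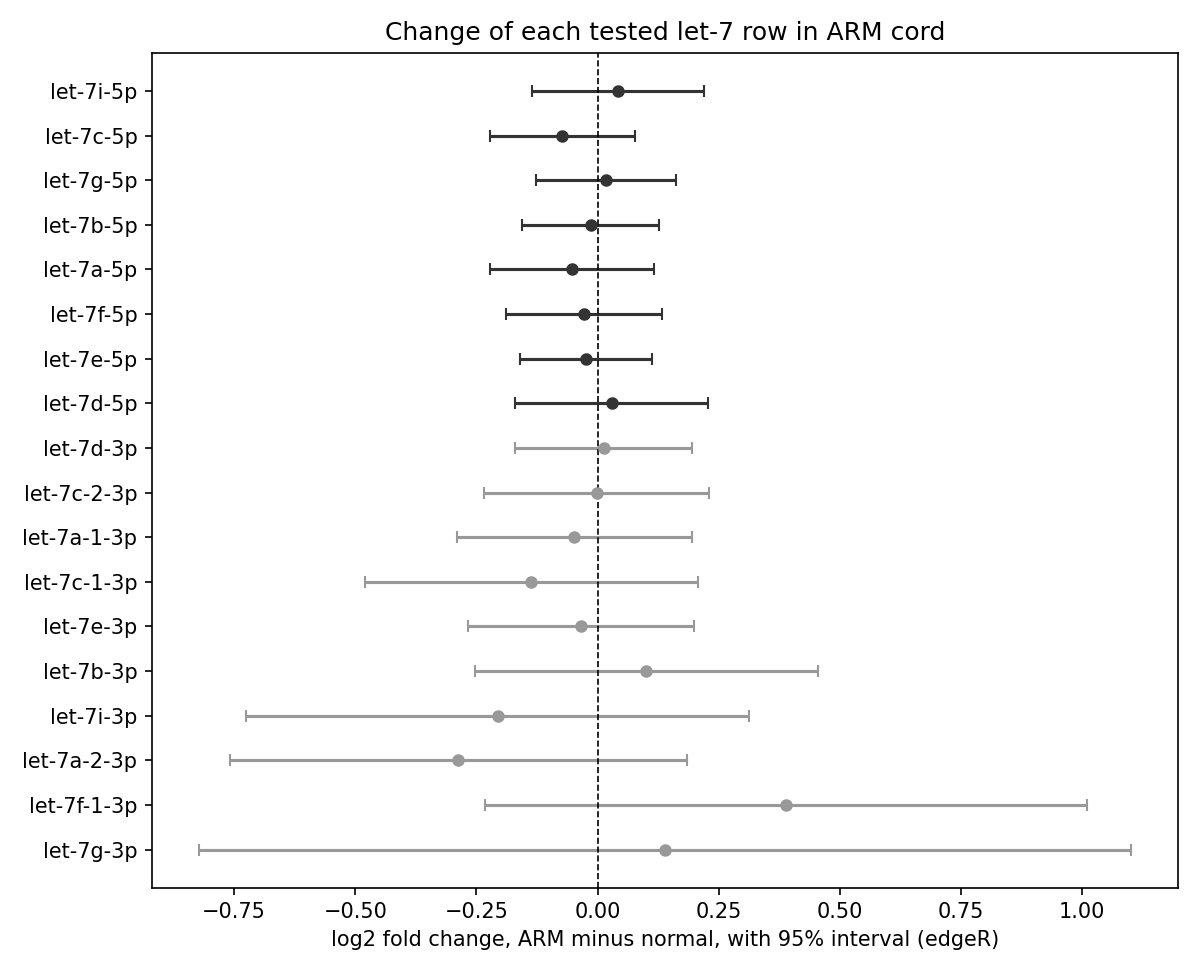
Log2 fold change of ARM over normal cord for each of the 18 tested let-7 rows, with guide strands (black, by level) above 3p rows (grey, by level). Points are edgeR estimates and bars their 95% intervals; the dashed line marks no difference, which lies within all 18 intervals, and the bars widen towards the 3p rows of few reads.

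The guides shared a pattern from library to library. All 8 had their highest ARM level in ARM replicate 5, as did 40 of 184 other tested rows of at least 100 CPM (21.7%). Of the 8, 7 had their highest normal level in normal replicate 4, for which the share over other rows was not counted. The exception was let-7i, the most abundant member, which was highest in normal replicate 6. The log2 deviations of the 8 guides from the 6-library mean in ARM replicate 5 ran from 0.036 for let-7b to 0.17 for let-7i. Without ARM replicate 5 all 8 log2 fold changes were negative, with a median of -0.066, and without ARM replicate 4 or without normal replicate 4 the median was 0.015, with 6 of 8 positive. None was called in any of these (lowest adjusted p = 0.814, edgeR).

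Some markers of other tissues were also highest in the same libraries. The liver miRNA miR-122-5p stood at 10.6, 24.9 and 3.29 CPM in ARM replicates 4 to 6, against 16.8, 1.23 and 1.96 CPM in normal replicates 4 to 6. The sum of the 4 muscle miRNAs, all detected, was 69.3, 99.4 and 48.5 CPM in ARM cord, against 103, 28.5 and 67.2 CPM in normal cord. Most of it was miR-206-3p, at 51.0, 75.0 and 34.1 CPM in ARM cord, which with miR-1-3p peaked in ARM replicate 5. In contrast, miR-133a-3p was slightly higher in ARM replicate 4 (6.33 CPM) than in replicate 5 (6.23 CPM), and miR-133b-3p stood at 2.26 CPM in both. The 7 epithelial miRNAs, all detected, summed to 379, 604 and 87.4 CPM in ARM cord, against 111, 171 and 135 CPM in normal cord. The first pair of lists was highest in ARM replicate 5 and normal replicate 4 within its group, and the epithelial list in ARM replicate 5 and normal replicate 5. Within the epithelial list miR-203a-3p and miR-205 peaked in ARM replicate 5. In contrast, miR-200a-3p (95.1, 63.1 and 5.82 CPM in ARM cord), miR-200b-3p, miR-200c-3p and miR-141-3p peaked in ARM replicate 4. Among ARM libraries the neural, caudal Hox, motor neuron, endothelial and immune lists were highest in replicate 6, and the sensory ganglion list in replicate 4. For the motor neuron miRNA, replicate 6 was nearly level with replicate 4, at 17215 against 17191 CPM. The immune list rested on 1 detected miRNA, at 2.56 to 3.04 CPM in ARM cord. The liver, muscle and epithelial levels are far below that of the family, and their part in its library pattern was not tested.

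**Figure D3:**
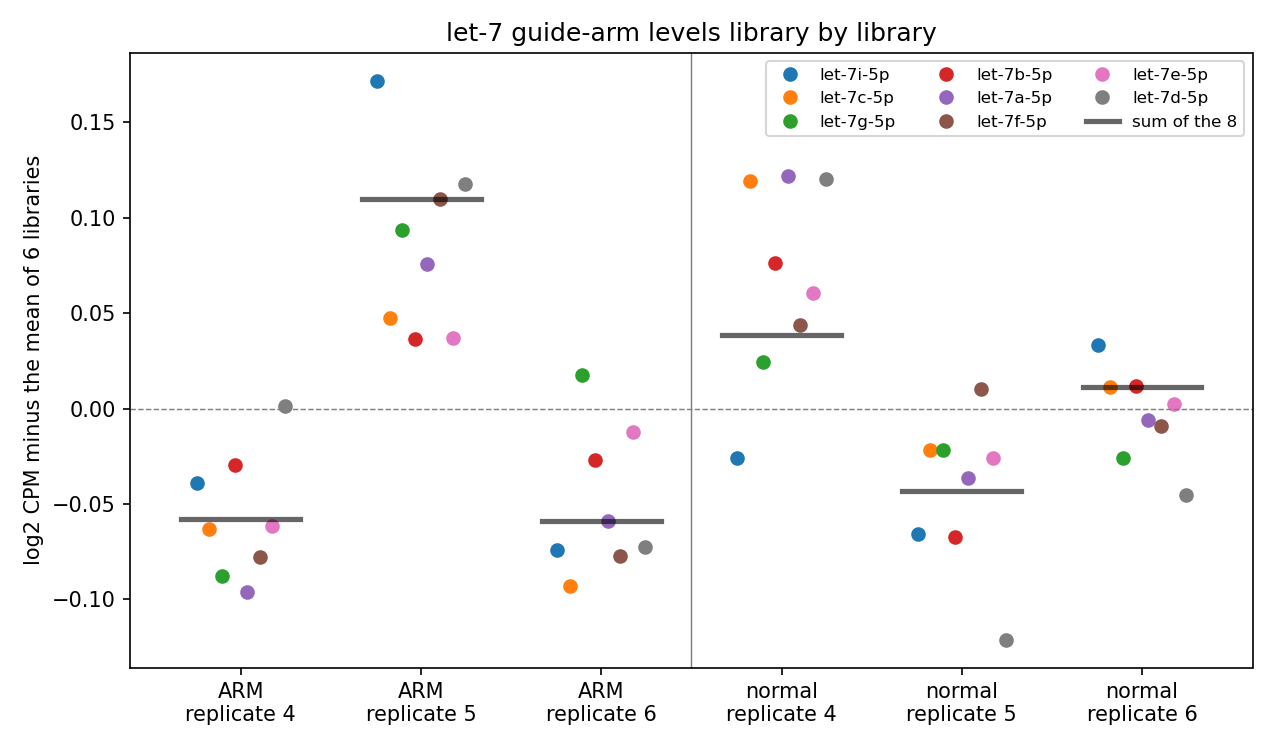
Deviation of each guide strand's log2 CPM from its mean over the 6 libraries, by library, ARM cord on the left and normal cord on the right of the grey line. Coloured points are the 8 members and the dark bar is their sum. All 8 points of ARM replicate 5 lie above 0, between 0.036 and 0.17, whereas 7 of 8 in ARM replicate 4 and 7 of 8 in ARM replicate 6 lie below it.

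Within the family, the share taken by each guide varied between libraries by no more than a few percentage points. The share of let-7c was 25.2%, 24.2% and 24.7% of the guide-strand counts in ARM cord, against 26.7%, 25.7% and 25.3% in normal cord. Every ARM share thus lay under the lowest normal share, with a gap smaller than the spread within either group, and it was the sole member of 8 whose shares did not overlap. For CPM, a different measure, the groups did not overlap for 45 of 525 tested rows (8.57%). The same count was not made for shares within other families, so the separation is not read as a trait of let-7c. Shares of 1 total are not independent of each other, and no test was made on them. The share of let-7i was 41.1%, 42.3% and 40.1% in ARM cord, against 38.8%, 39.9% and 41.2% in normal cord, and overlapped.

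The 3p rows, the strand that is mostly discarded once the hairpin is cut, were far scarcer. Together they came to 366 ± 13.2 CPM in ARM cord and 371 ± 14.6 CPM in normal cord (SD, n = 3 each). The highest was let-7d-3p, at 128.6, 138.4 and 124.2 CPM in ARM cord, against 132.5, 130.2 and 125.1 CPM in normal cord, with interleaved groups (log2 fold change 0.013, interval -0.17 to 0.20). The rows let-7e-3p, at 27.1 ± 1.16 CPM in ARM cord against 27.8 ± 1.67 CPM in normal cord, and let-7b-3p, at 23.7 ± 3.53 CPM in ARM cord against 22.1 ± 2.69 CPM in normal cord, also overlapped between the groups. The row let-7i-3p had 154, 162 and 86 counts in ARM cord, against 145, 145 and 164 counts in normal cord, with ARM replicate 6 alone low (log2 fold change -0.21, interval -0.73 to 0.31). The widest estimates came from the rows of fewest reads. The row let-7f-1-3p had 35, 30 and 29 counts in ARM cord, against 21, 33 and 17 counts in normal cord (log2 fold change 0.39, interval -0.23 to 1.01, adjusted p = 0.934, edgeR). The row let-7g-3p had 26, 17 and 14 counts in ARM cord, against 8, 20 and 23 counts in normal cord (0.14, interval -0.82 to 1.10). At this depth a 2-fold higher level in ARM cord lay inside the interval of both rows.

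Rows of 1 guide with several genomic copies can in part be told apart by their 3p strands. For let-7a, the copy on chromosome 17 gave let-7a-1-3p at 66.3 ± 4.79 CPM in ARM cord against 68.5 ± 6.08 CPM in normal cord. The copy on chromosome 8 gave let-7a-2-3p at 5.59 ± 0.541 CPM in ARM cord against 6.82 ± 1.56 CPM in normal cord (log2 fold change -0.29, interval -0.76 to 0.18). For let-7c, let-7c-1-3p stood at 30.2 ± 2.79 CPM in ARM cord against 33.2 ± 5.39 CPM in normal cord and let-7c-2-3p at 67.9 ± 3.42 CPM in ARM cord against 67.9 ± 6.27 CPM in normal cord. However, let-7a-1-3p and let-7c-2-3p have the same mature sequence, although their loci lie on different chromosomes (chr17:16320196-16320217 and chr7:118683684-118683705, both plus strand, GRCr8). It is shown with that of let-7a-2-3p, which differs, and all 3 in lower case because no part is singled out.
let-7a-1-3p: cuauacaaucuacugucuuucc
let-7c-2-3p: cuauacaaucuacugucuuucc
let-7a-2-3p: cuguacagccuccuagcuuucc

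The deposited counts of this identical pair were close to even in every library. In ARM replicates 4 to 6, let-7a-1-3p had 808, 837 and 832 counts and let-7c-2-3p 848, 861 and 831. In normal replicates 4 to 6 the counts were 833, 947 and 754 for let-7a-1-3p and 850, 917 and 745 for let-7c-2-3p. The share of let-7a-1-3p in the pair was 48.8% to 50.03% in ARM cord and 49.5% to 50.8% in normal cord, and all 6 Wilson 95% intervals, which cover counting error only, held an even split. The rows thus cannot be assigned to their loci, and either value is uncertain as a reading of its own copy. This was 1 of 2 groups of rows with identical mature sequences in the table.

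The balance between the arms spanned a wider range over the members than their levels did, although the ranges of let-7e and let-7a, and those of let-7b and let-7c, overlapped over the 6 libraries. It was taken as log2 of 5p over 3p counts of the same library with 0.5 added to each, so that library scaling does not enter. Over all libraries let-7d had 5.24 guide reads for each 3p read, let-7e had 51.4, let-7a 53.4, let-7b 201 and let-7c 206. The ratio was 1378 for let-7f, 2872 for let-7i and 9704 for let-7g, the last resting on 108 3p reads in all. The 5p arm was the more abundant for 8 of 8 members and for 96 of 166 arm pairs in the table, whose median log2 ratio was 0.87, against 7.67 for the let-7 pairs. The 3p rows of let-7a and let-7c include the pair of identical sequence, so their ratios are uncertain. The guide let-7f-5p is the same from both of its hairpins, whereas its 3p reads were all of let-7f-1-3p, because let-7f-2-3p is listed at 0, so the ratio of let-7f is uncertain too.

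The arm balance of every member overlapped between the groups. For let-7d it was 2.40, 2.41 and 2.38 in ARM cord, against 2.48, 2.26 and 2.40 in normal cord, on the log2 scale. For let-7i it was 11.43, 11.46 and 12.07 in ARM cord, against 11.35, 11.46 and 11.30 in normal cord, with ARM replicate 6 set apart from the rest at 86 3p reads. For let-7f it was 10.08, 10.38 and 10.18 in ARM cord, against 10.74, 10.22 and 11.05 in normal cord, the widest difference between group means of the 8 (-0.46, SD 0.16 in ARM cord and 0.42 in normal cord), with the limit that its 3p reads are those of let-7f-1 alone. The groups did not overlap for 0 of 8 let-7 pairs, beside 13 of 166 pairs in the table (7.83%). With 3 against 3 libraries an exact permutation test cannot go below p = 0.1, so none was made.

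**Figure D4:**
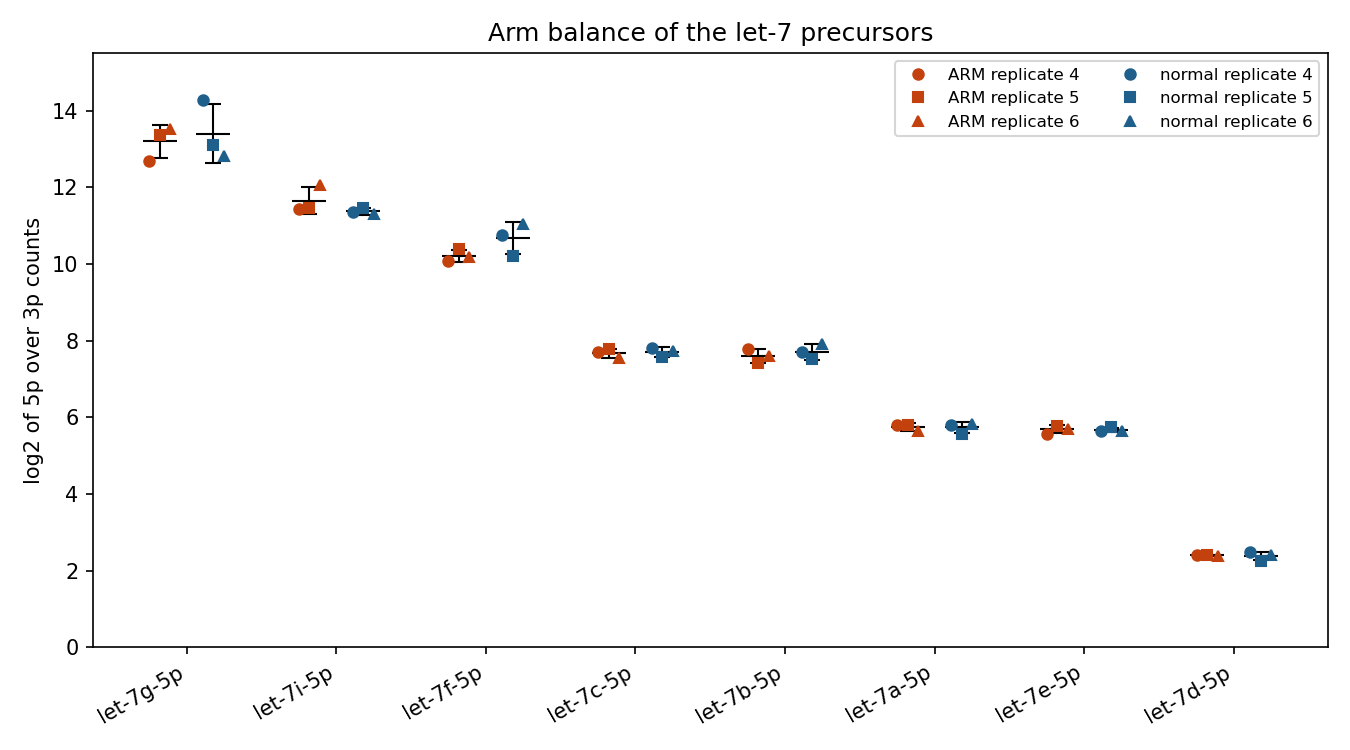
Arm balance of each let-7 guide, as log2 of 5p over 3p counts, by library, with ARM cord in orange on the left of each pair and normal cord in blue on the right. Points are single libraries, and lines and bars give the mean ± SD of 3; the balance falls from 13.19 and 13.40 for let-7g to 2.40 and 2.38 for let-7d in ARM and normal cord, and the groups overlap for every member.

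The genomic neighbours of the members in RefSeq (GRCr8) were as follows. On chromosome 17 the mature parts of let-7a-1 and let-7f-1 lay 291 bases apart, and let-7d followed 1689 bases on. On chromosome 7, let-7c-2 and let-7b lay 339 bases apart, and let-7i stood alone on the same chromosome, with no other annotated miRNA within 10000 bases, as did let-7g on chromosome 8. The 3p rows of 1 cluster were not alike in level. The rows let-7a-1-3p, let-7f-1-3p and let-7d-3p of the chromosome 17 cluster stood at 67.4, 2.20 and 130 CPM over all libraries. The first of them is shared in sequence with chromosome 7. The guides stood in another order, at 3934 CPM for let-7a-5p, 3054 CPM for let-7f-5p and 681 CPM for let-7d-5p. However, let-7a-5p and let-7f-5p also come from hairpins on other chromosomes. The 3p values are therefore not read as levels of the hairpins. The opposite strand of several loci carries miR-3596a to miR-3596d, whose sequences are exact reverse complements of parts of let-7a-5p, let-7d-5p, let-7e-5p and let-7f-5p. All 4 were listed at 0 in every library, as were the 2 rows of miR-202.

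Lin28 binds let-7 precursors in the loop and, through its zinc knuckles, at a GGAG motif that lies before the 3p strand. Of the 11 let-7 and miR-98 hairpins in the table of RefSeq sequences 9 held GGAG, searched on the hairpin strand alone; let-7b is not among these 11. The same letters stood in 172 of all 419 rat hairpins (41.1%). In 8 of the 8 hairpins that held it and had a 3p entry, exactly 4 bases lay between a GGAG and the first base of the 3p strand. Of the 11, those of let-7c-2 and miR-98 did not hold these letters. Those of let-7e and let-7c-1 held them at 2 places each. In let-7e the first began at base 22, within the guide, and in let-7c-1 the second lay near the 3′ end of the hairpin. The hairpins of let-7i, the most abundant member, and of both let-7c copies are shown with that of miR-98, GGAG in capitals.
let-7i (chr7:60527877-60527961, minus strand): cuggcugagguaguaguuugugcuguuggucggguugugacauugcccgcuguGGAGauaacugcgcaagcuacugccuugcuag
let-7c-1 (chr11:29688112-29688205, plus strand): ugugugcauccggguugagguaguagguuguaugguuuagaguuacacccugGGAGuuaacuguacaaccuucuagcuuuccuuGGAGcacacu
let-7c-2 (chr7:118683623-118683717, plus strand): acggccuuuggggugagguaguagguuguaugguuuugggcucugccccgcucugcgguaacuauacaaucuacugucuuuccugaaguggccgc
miR-98 (chrX:24460648-24460755, plus strand): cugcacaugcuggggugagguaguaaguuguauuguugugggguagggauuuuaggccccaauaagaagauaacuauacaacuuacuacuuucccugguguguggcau

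A match is a description of the letters and not a binding site. Since both let-7c hairpins give the same guide, the level of let-7c-5p cannot be split between the copy with GGAG and the copy without it. The copy-specific row let-7c-1-3p had a log2 fold change of -0.14 (interval -0.48 to 0.21), and let-7c-2-3p, shared in sequence with let-7a-1-3p, one of -0.0016 (interval -0.23 to 0.23).

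Several members are cut from the same primary transcripts as miR-99, miR-100 and miR-125. In GRCr8, let-7e lay 114 bases from miR-99b and 380 bases from miR-125a on chromosome 1, let-7c-1 lay 665 bases from miR-99a on chromosome 11, and let-7a-2 lay 6859 bases from miR-100 on chromosome 8. A list of all rows of miR-99a, miR-99b, miR-100, miR-125a and miR-125b was tested in 10 of 11 rows; miR-125b had no let-7 hairpin annotated within 10000 bases. Of these, 0 passed, with 5 positive and 5 negative log2 fold changes and a median of -7.4e-06 beside 0.0029 over all tested rows. The highest was miR-99a-5p, at 90713 ± 1202 CPM in ARM cord against 91158 ± 4491 CPM in normal cord (log2 fold change -0.0071). Next were miR-125b-5p, at 30473 ± 894 CPM in ARM cord against 31326 ± 2797 CPM in normal cord, and miR-100-5p, at 23464 ± 608 CPM in ARM cord against 22901 ± 1339 CPM in normal cord. Guides of 1 transcript differed widely in level, since over all 6 libraries let-7e-5p averaged 1411 CPM, miR-99b-5p 12887 CPM and miR-125a-5p 7411 CPM.

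A wider list of miRNAs known for the timing of neural differentiation held the 5p and 3p rows of miR-9a, miR-124, miR-128, miR-137, miR-125a and miR-125b, 14 rows, all tested. None passed, 5 were positive and 9 negative, and the median log2 fold change was -0.026. The groups did not overlap for 1 of the 14 rows, beside 8.57% of all tested rows. It was miR-9a-5p, at 331442 ± 8981 CPM in ARM cord against 316411 ± 6728 CPM in normal cord (log2 fold change 0.067, SE 0.043, adjusted p = 0.934, edgeR). The row miR-125a-5p was at 7362 ± 709 CPM in ARM cord against 7461 ± 566 CPM in normal cord.

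The rows whose library pattern lay nearest to that of the summed guides were found by the root mean square difference of log2 deviations over the 6 libraries. Among 184 other catalogue rows of at least 100 CPM they were miR-181d-5p (0.036), miR-326-3p (0.041), miR-325-3p (0.045), miR-361-3p (0.055) and miR-340-5p (0.055). The median over the 184 rows was 0.119, and a row with no variation at all would have scored 0.061. The points share their libraries and scaling, and the measure is a description.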

How the data were processed

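Groups and replicate numbers came from the sample titles. The columns of the deposited miRNA table were matched to samples by library name and kind of RNA, since lncRNA libraries, not analysed here, carry the same short names. The authors deposited whole-number counts per mature miRNA together with TPM columns, named so per the file headers. Each TPM matched a row's count over its library total, within 0.001, and entered no test. The submitters' processing notes name CASAVA 1.8, TopHat2 2.0.9, Cufflinks 2.1.1, Cuffdiff and the mouse build mm10. Which of these apply to miRNAs, the counting tool, the catalogue release and the treatment of reads matching several miRNAs were not stated in the sources read for this report. Reads carry no stated molecular identifiers.

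Counts of all 846 rows were fitted with edgeR 4.0.16 in R 4.3.3 (filterByExpr, TMM, glmQLFit, glmQLFTest, no covariate), and 525 rows were tested with Benjamini-Hochberg adjustment at 0.05. Log2 fold changes are ARM minus normal. Standard errors came from the F statistic and 95% intervals from the t quantile of the fit's degrees of freedom. Alternatives were RLE size factors, no scaling factors, DESeq2 1.42.0, no filter, a replicate block, each library left out, other denominators of the summed level and another pseudocount. On counts simulated from these libraries (525 rows, 200 changed) the test recovered 87 of 100 rows changed 2-fold and 97 of 100 changed 4-fold, with 5 false calls. So large a share of changed rows eases the adjusted threshold, whereas the real fit called 0 rows. The recovery is therefore not the chance of finding a lone 2-fold change in these libraries. In the real fit miR-200a-3p, at a log2 fold change of 2.81, had an adjusted p = 0.598 (edgeR). Pairs of libraries of a group differed far beyond sampling noise (lowest chi-square over its degrees of freedom 33.8), and none was counted as a repeat.

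Every member row is accounted for. Of the other lists the 3 highest rows are named, with any called row, and the 5 rows nearest in library pattern. The row miR-99b-5p and the rows at 0 outside the family were named after their values were seen. Members and lists were chosen with earlier results of these data known. Sequences and coordinates are from RefSeq (GRCr8); the table itself has no coordinates.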

Additional observations from a re-analysis of the deposited data

How the results depend on the processing

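No member row was called under any alternative (198 values, lowest adjusted p = 0.814, edgeR or DESeq2). Over all rows the count of calls was 0 in edgeR, 7 with DESeq2 and 0 to 3 with a library left out, the 3 without ARM replicate 6. Rows with an unadjusted p under 0.05 numbered 31, 47 without a filter on low counts, and 18 to 40 with a library left out, the 18 without normal replicate 4. The replicate block called 0 rows, with 25 at an unadjusted p under 0.05. Same-numbered libraries deviated together at correlations of -0.029, -0.14 and -0.0038, and 0 of 3 ARM libraries correlated best with their own number.

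Small log2 fold changes changed sign. Without scaling factors let-7d-3p was at -0.0082 and let-7g-5p at -0.0047, and with the replicate block let-7c-2-3p was at 0.0012. Leaving out each library in turn, the log2 fold change ranged from -0.13 to 0.023 for let-7a-1-3p, -0.13 to 0.0013 for let-7a-5p, -0.042 to 0.21 for let-7b-3p, -0.058 to 0.026 for let-7b-5p and -0.085 to 0.053 for let-7c-2-3p. It ranged from -0.054 to 0.043 for let-7d-3p, -0.045 to 0.11 for let-7d-5p, -0.067 to 0.0071 for let-7e-3p, -0.071 to 0.013 for let-7e-5p and -0.11 to 0.017 for let-7f-5p. For let-7g-3p it ran from -0.17 to 0.42, for let-7g-5p from -0.049 to 0.077, for let-7i-3p from -0.40 to 0.0015 and for let-7i-5p from -0.060 to 0.086. The cause was not tested. The summed level (log2 ratio -0.061 to 0.026) and the median difference in arm balance (-0.085 to 0.037) moved by less than the spread between replicates under every alternative run. Depth limits the rarer 3p rows, of which let-7g-3p had 8 to 26 counts in a library.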
